A study of Mus musculus with 6 samples.

Results

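The 48 genes described here encode C-type lectin receptors, sialic acid-binding Siglecs, the paired immunoglobulin-like receptors of the TREM, CD300, LILR, PIR and PILR families, and SIRPα, LAIR1 and the adaptor DAP12. They were taken by name from the 14005 genes of the deposited table: symbols that start with Clec, Siglec, Trem, Lilr, Cd300, Pilr, Pira or Pirb, together with Cd33, Cd22, Sirpa, Tyrobp and Lair1, without names that contain -ps. The rule reads names only, but it was set with earlier results of these data known. They were read in BMDM, macrophages that are cultured from the bone marrow of mice, with 3 wild-type libraries (C57BL/6J) and 3 labelled Txn1 KO. The genotype of the latter is given as Txn1tm1.1Ees/J with the Cre line B6.129P2-Lyz2tm1(cre)lfo/J, on a C57BL/6J background. Cre is there expressed from the locus of Lyz2, a gene of myeloid cells, and acts on an allele of Txn1, which encodes the disulfide reductase thioredoxin-1. The labels give bone marrow pooled from male and female mice for both groups and name no age, treatment or stimulus. The wild-type cells carried neither Cre nor the Txn1 allele, and a library with Cre alone was not analysed here, so the effects of Cre, of the interrupted Lyz2 and of Txn1 loss cannot be told apart. The study set out to learn how loss of thioredoxin-1 affects genes of the NLRP1 inflammasome; the receptors are a set outside that question.

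Receptors of these families let a macrophage read sugars, lipids, dying cells and other cells at its surface. Activating members signal through an immunoreceptor tyrosine-based activation motif (ITAM), carried by an adaptor such as DAP12 (gene Tyrobp) or the Fc receptor γ chain (Fcer1g), or through a single such tyrosine motif in the receptor's own tail, and recruit the kinase SYK. Inhibitory members carry an immunoreceptor tyrosine-based inhibition motif (ITIM) that recruits the phosphatases SHP-1 and SHP-2. Within a family the 2 kinds often bind related ligands and sit side by side in the genome, hence the name paired receptors.

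The libraries held 22508616 to 38726953 reads in the listed genes, and 3 reads, the smallest number told from 0, were worth 2.33 to 4.04 normalized counts, a limit that covers counting error only. Macrophage markers were present in both groups (Adgre1, Csf1r and Cd68 at 16392 normalized counts or more in every library). Of the 11 listed entries for macrophage markers 5 were called higher and 3 lower (72.7%, beside 21.5% of all tested genes). Their log2 changes ran from -0.71 to 1.76, and 2 entries were called at least 2-fold higher. The 3 lower entries were Fcgr1 (log2 -0.71), Cd14 (log2 -0.47) and Cd68 (log2 -0.12). Of the 5 higher entries 1 is named here, Itgam (log2 0.48 in the more abundant of its 2 entries). The sum over the list overlapped between groups (156494 to 160645 in wild type and 156976 to 157845 under the Txn1 KO label). The part of these markers in the receptor values was not tested. The whole-gene value of Txn1 did not pass the test (log2 difference -0.03, limma BH-adjusted p = 0.686), and sums over the whole gene cannot show a partial deletion. Lyz2 fell from 364408 ± 3550 to 3118 ± 1281 normalized counts (SD, n = 3 each). Liver transcripts were present in wild-type replicate 1 and Txn1 KO library 3 (albumin, Alb: 642.9 and 580.0 normalized counts; 0.838 or less in each of the other 4), and each count of calls was repeated without these 2 libraries. Whether the replicates were separate animals or cultures is not in the labels. The p-values therefore rest on the spread among these libraries only, which may be technical. In such bulk RNA fewer cells of one type and less RNA per cell cannot be told apart.

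The receptors spanned from near the limit of detection to some of the most abundant transcripts. Together they took 1.11% to 1.13% of the normalized counts of every library, with 334168 to 337531 in wild type and 335220 to 339767 in Txn1 KO-labelled libraries, so their summed level overlapped between the groups. In wild type, Lilrb4a, Sirpa and Trem2 made up 58.2% of that sum, and with Tyrobp and Pirb the share reached 70.7%; in Txn1 KO-labelled libraries the corresponding shares were 57.1% and 69.1%. Per kilobase of exon, the wild-type order began with Tyrobp (34525 normalized counts per kb) and Lilrb4a (34516), which did not differ beyond their spread, followed by Sirpa (13812), Trem2 (11897), Clec4d (8989), Cd300c2 (7296) and Clec7a (5059.7). It ended with Clec1b (4.06), Clec1a (3.66) and Treml4 (3.42). The largest moves in that order were those of Treml4, from place 48 to 37, Clec2i, from 34 to 27, and Clec4n, from 16 to 11. The share and place of Lilrb4a are uncertain, since 96.6% of its 50-base stretches occur in other genes.

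**Figure D1:**
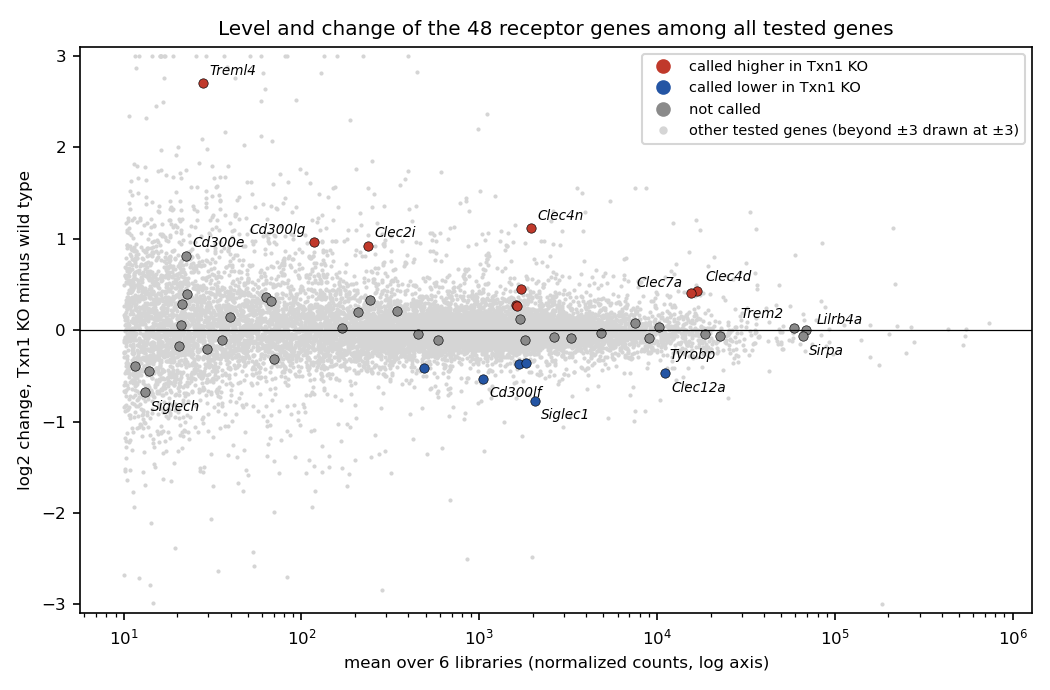
Mean level over the 6 libraries (normalized counts, log axis) against the log2 change from wild type to Txn1 KO for the 48 receptor genes (coloured by call) among the other tested genes (grey). The most abundant members, Lilrb4a, Sirpa and Trem2, lie near 0, and Treml4, Clec4n, Cd300lg and Clec2i stand highest.

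In Txn1 KO libraries 9 of the 48 genes rose, 6 fell and 33 did not pass the test (limma on log2(normalized count + 1), Benjamini-Hochberg (BH) adjusted p under 0.05 over all 13977 tested genes). The background was 21.5% of all tested genes called in either direction, 11.5% higher and 9.97% lower, against 31.2% of the receptors. Called genes are more frequent at high levels: among all genes with a mean of at least 1000 normalized counts 33.6% were called, and of the 24 receptors at that level 11 were (45.8%). The median log2 change of the 48 was 0.01, beside -0.00 over all tested genes. The median size of the change without its sign was 0.27 for called and uncalled receptors together and 0.13 for all tested genes. For the 24 receptors with a mean of at least 1000 it was 0.12, and for the 9 between 100 and 1000 it was 0.21. For the 15 below 100, where the standard errors were largest, it was 0.32. Groups did not overlap for 20 of the 48, beside 36.2% of all tested genes. All 48 passed the filter on low values (a mean of at least 10). Treml4 passed through the Txn1 KO libraries alone, since its wild-type mean was below 10, and Siglech through the wild type alone.

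The call of each of the 15 held under each alternative that was run: other pseudocounts and filters, a threshold of 0.01, each library left out in turn, the 2 libraries with liver transcripts left out, a replicate block, TMM rescaling, edgeR and DESeq2 on the recovered reads, and the statistics in the authors' deposited table. The 1 exception is Treml4 with a filter on a mean of at least 50, which left it untested. The precision differed with level. The standard error of the log2 change had a median of 0.042 for the 24 members with a mean of at least 1000, 0.10 for the 9 between 100 and 1000, and 0.33 for the 15 below 100. Of those 15 only Treml4 was called, and for the rest a change of the size seen in Clec7a or Clec12a was not detectable at this depth.

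**Figure D2:**
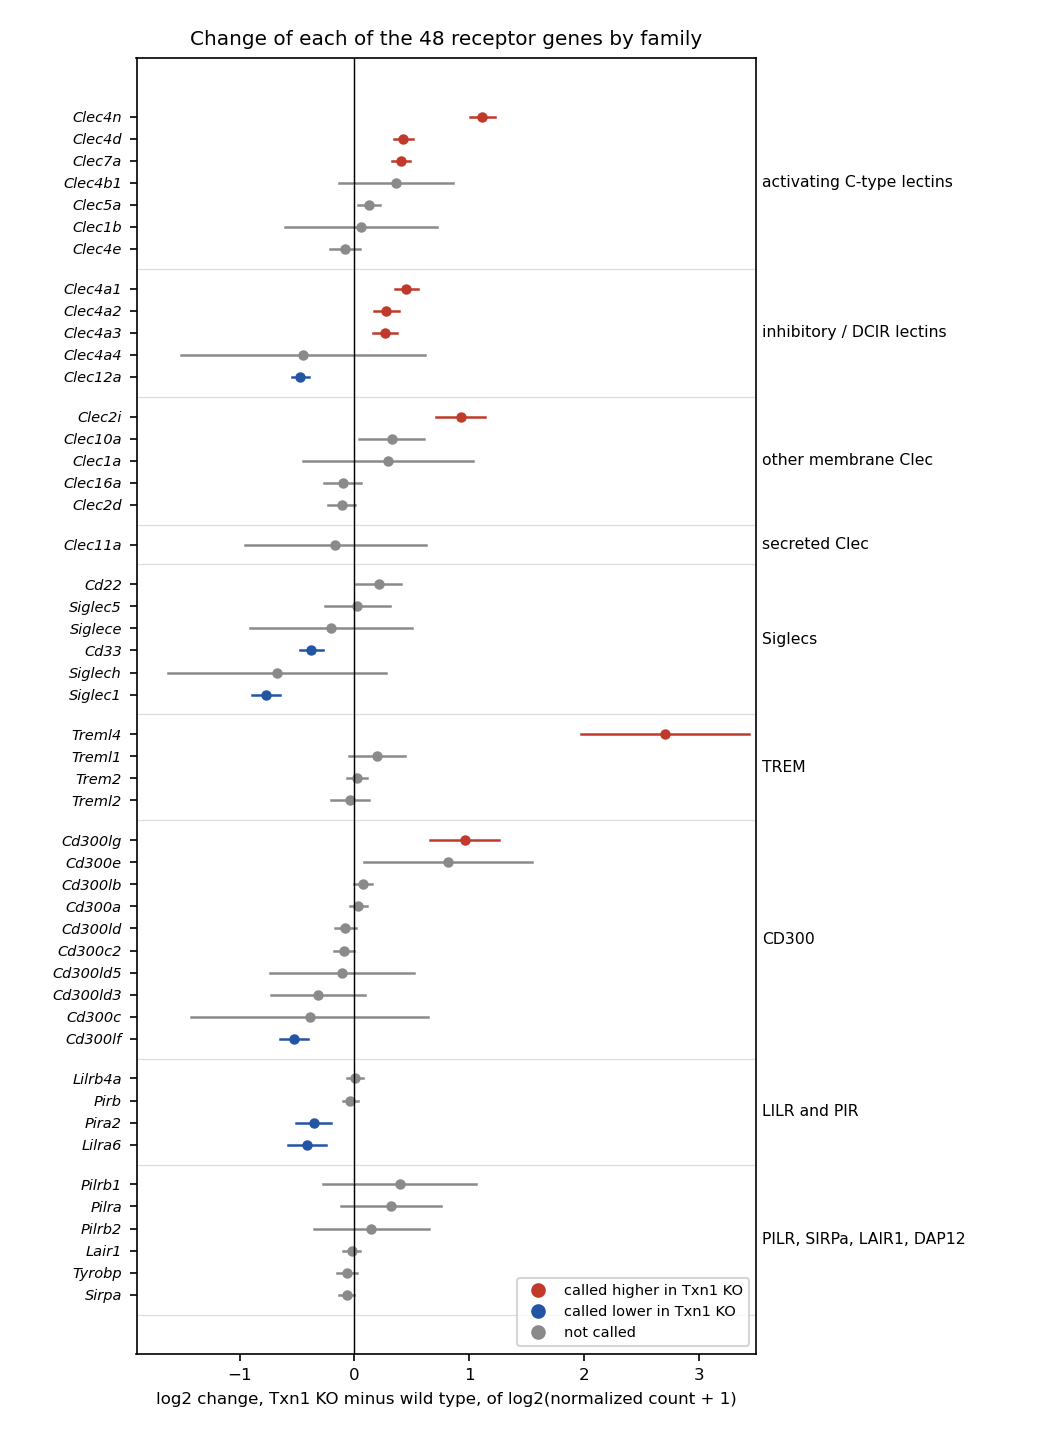
Log2 change from wild type to Txn1 KO (points) with 95% intervals from limma (bars) for each receptor gene, grouped by family. Clec4n, Clec4d, Clec7a, Clec4a1, Clec4a2 and Clec4a3 lie above 0, Clec12a, Siglec1, Cd33, Cd300lf, Pira2 and Lilra6 lie below 0, and the widest bars belong to genes with few reads.

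Among C-type lectin receptors that activate through SYK, 3 of 7 rose and 0 fell. That is 42.9% called, beside 21.5% of all tested genes and 33.6% of those with a mean of at least 1000. Clec4n (ENSMUSG00000023349, chromosome 6, 123229843 to 123247021, plus strand, GRCm38) encodes dectin-2, a receptor for fungal mannans that signals through the Fc receptor γ chain. It had 1179.9, 1288 and 1231 normalized counts in the wild-type libraries and 2542, 2652 and 2825 in those labelled Txn1 KO. Every Txn1 KO library lay far above every wild-type library, a 2.17-fold higher mean and a log2 change of 1.12 ± 0.050 (SE; limma BH-adjusted p = 4.32e-11). Clec4n and Treml4 were the 2 members both called and changed at least 2-fold on the log2 scale, where the background was 2.23% of tested genes, 1.55% higher and 0.68% lower.

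Clec4d (ENSMUSG00000030144, chromosome 6, 123262111 to 123275265, plus strand) encodes MCL, which binds mycobacterial cord factor. Its values were 14353, 14313 and 14454 in wild type and 19099.6, 18378 and 20530.2 normalized counts in Txn1 KO-labelled libraries. The wild-type libraries were within a narrow band that no Txn1 KO library reached (log2 0.43 ± 0.038, limma BH-adjusted p = 2.47e-07). Clec7a (ENSMUSG00000079293, chromosome 6, 129461591 to 129472779, minus strand) encodes dectin-1, the β-glucan receptor with a tyrosine motif in its own tail. It went from 13106, 13830.0 and 13106 to 18219, 17974 and 16893 normalized counts, without overlap (1.33-fold, log2 0.41 ± 0.036, limma BH-adjusted p = 2.94e-07). GENCODE M21 lists Clec7a as a polymorphic pseudogene, the type it gives to genes that are coding in some strains or haplotypes only.

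The other 4 activating lectins did not pass. Clec4e encodes Mincle, the inducible receptor for cord factor that pairs with MCL, and lies next to Clec4d on the opposite strand. It had 3186, 3892 and 3119 normalized counts in wild type and 3227, 3182 and 3164 in Txn1 KO-labelled libraries. Wild-type replicate 2 was the high library, and the 95% interval of the log2 difference ran from -0.21 to 0.05. The log2 ratio of Clec4d to Clec4e was 1.88 to 2.21 in wild type and 2.53 to 2.70 in those labelled Txn1 KO, without overlap and with a difference of 0.51. An exact two-sided permutation test gave p = 0.10, the smallest that 3 against 3 libraries allow. In that test all 10 such ratios of members that were computed gave this p (adjusted p = 0.10). The pairs were chosen after their values were seen, so this p cannot weigh the contrast. Clec5a, which encodes the DAP12-coupled MDL-1, had 1633, 1629.6 and 1606 normalized counts in wild type and 1835, 1783 and 1698 under the Txn1 KO label. Its groups did not overlap, and the test was just missed (log2 0.13 ± 0.045, limma BH-adjusted p = 0.0580). Over the alternatives that kept the 0.05 threshold its adjusted p was between 0.0242 and 0.211. Clec4b1 (35.7 to 75.4 normalized counts over the 6 libraries) and the platelet receptor gene Clec1b (18.4 to 23.3) were low and overlapped between groups.

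To show what lies directly upstream of this pair of neighbours with unequal change, the 250 bases before the RefSeq start of Clec4d and of Clec4e are given 5′ to 3′ on each gene's own strand (GRCm38.p6; chr6:123261857-123262106, plus, and chr6:123289872-123290121, minus). Capitals mark the letters TATAAA. They occur 29 bases before the start of Clec4e and are not in this window of Clec4d, and 13% of the 27025 RefSeq promoter windows of that length hold them on either strand.
Clec4d: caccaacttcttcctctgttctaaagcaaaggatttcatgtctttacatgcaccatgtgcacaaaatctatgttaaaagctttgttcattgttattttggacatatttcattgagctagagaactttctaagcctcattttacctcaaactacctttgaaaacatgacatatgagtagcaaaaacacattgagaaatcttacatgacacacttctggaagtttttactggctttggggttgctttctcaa
Clec4e: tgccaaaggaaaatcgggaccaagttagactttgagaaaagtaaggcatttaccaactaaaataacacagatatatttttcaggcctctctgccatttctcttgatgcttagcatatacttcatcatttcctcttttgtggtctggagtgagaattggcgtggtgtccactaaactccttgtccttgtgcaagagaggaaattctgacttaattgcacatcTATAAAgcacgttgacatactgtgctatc
Both strands were also searched for the core letters of the interferon response element and for TGACNNNGC, the core of the antioxidant response element, and neither window held them. RefSeq windows matched 37 of the 48 receptor genes. The called genes Siglec1, Clec4n and Cd300lg had no matched window. Of these 37, 6 held the interferon element (Cd300c, Clec2d, Clec4b1, Pilra, Pilrb1 and Pilrb2, with 0 of the 6 called), as did 3.04% of all windows. The windows of Pilra, Pilrb1 and Pilrb2 are near-copies (98.0% to 99.5% of aligned bases identical), so the 6 are not independent. TGACNNNGC was held by 7 of the 37 (10.1% of all windows).

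Of the 5 inhibitory and DCIR-family lectins 3 rose, 1 fell and 1 did not pass (80% called, beside 21.5% of all tested genes). Clec4a2 encodes DCIR, an ITIM receptor, and Clec4a1 and Clec4a3 are its close relatives in the same gene cluster. Clec4a1 (chromosome 6, 122921848 to 122934619) rose from 1429, 1462 and 1476 to 2019, 1880.2 and 2086 normalized counts (log2 0.45 ± 0.048, limma BH-adjusted p = 2.22e-06). Clec4a2 (chromosome 6, 123106428 to 123143999) had 1476, 1457 and 1445 in wild type against 1778, 1651 and 1889.5, and Clec4a3 (chromosome 6, 122952515 to 122969875) 1422, 1490.5 and 1518 against 1732, 1718 and 1892 normalized counts. Both rose by about the same amount (log2 0.28 and 0.27, limma BH-adjusted p = 0.000701 and 0.000763), and for all 3 genes the groups did not overlap. Of 50-base stretches in Clec4a2 transcripts, 6.69% also occur in another gene, and in Clec4a1 and Clec4a3 0% do. Clec4a4 was near the floor, with 4.04 to 18.5 normalized counts.

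Clec12a (ENSMUSG00000053063, chromosome 6, 129342691 to 129365303, plus strand) went the other way. It encodes MICL, an ITIM receptor that responds to uric acid crystals of dead cells. It had 12614, 13442 and 12784 normalized counts in wild type and 9467, 9235 and 9319.7 in Txn1 KO-labelled libraries, 72.1% of the wild-type mean (log2 -0.47 ± 0.034, limma BH-adjusted p = 1.82e-08). Clec7a and Clec12a were nearly equal in each wild-type library, with log2 ratios of 0.04 to 0.06, and 0.86 to 0.96 in Txn1 KO-labelled libraries.

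These lectin genes lie in 2 clusters on chromosome 6, whose counts of calls stand beside 21.5% of all tested genes. The first, 368 kb from Clec4a1 to Clec4e, held 8 members and no other listed gene: 5 rose (Clec4a1, Clec4a3, Clec4a2, Clec4n and Clec4d), 0 fell, and Clec4a4, Clec4b1 and Clec4e did not pass. The second, 585 kb from Clec2i to Clec7a, held 6 members, of which Clec2i and Clec7a rose and Clec12a fell. Its 3 other listed genes included Cd69, an early activation marker, which fell (log2 -0.72 ± 0.18, limma BH-adjusted p = 0.00787). The call of Cd69 was lost without wild-type replicate 2 (BH-adjusted p = 0.0639, the highest over the alternatives, in limma).

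**Figure D3:**
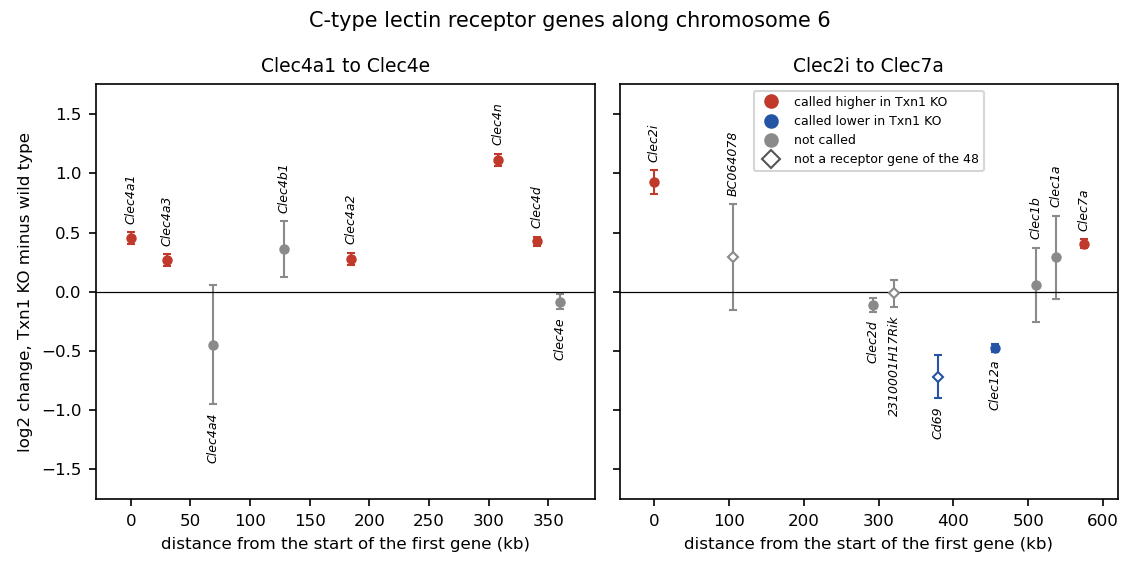
Log2 change from wild type to Txn1 KO (points) with standard errors (bars) against distance in kb from the start of the first gene, for the 2 lectin clusters of chromosome 6. In the first cluster 5 of 8 genes are called higher (beside 11.5% of all tested genes) and Clec4e at its far end is not called. In the second, Clec12a is called lower between Clec2d and Clec7a.

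Among the remaining Clec genes 1 of 6 was called, as higher, beside 21.5% of all tested genes called in either direction. Clec2i (ENSMUSG00000030365, chromosome 6, 128887588 to 128898167), of the family whose proteins are ligands of NKR-P1 receptors on natural killer cells, had 161, 177 and 152 normalized counts in wild type and 311, 299 and 323 in Txn1 KO-labelled libraries. All 3 of the latter were far higher (1.90-fold, log2 0.93 ± 0.10, limma BH-adjusted p = 3.59e-06). Its relative Clec2d had 1938, 1905 and 1781 in wild type and 1637, 1912 and 1662 under the Txn1 KO label, with overlap (log2 -0.11, limma BH-adjusted p = 0.187). Without Txn1 KO library 2 it passed the test (limma BH-adjusted p = 0.0259, lowest of a range over alternatives that reached 0.646). Clec10a, a galactose receptor of dendritic cells and macrophages, had 181 to 252 and 234 to 323 (limma BH-adjusted p = 0.0976, and over the alternatives 0.0437 without wild-type replicate 2 to 0.762 without the 2 libraries with liver transcripts). Clec1a and Clec11a, which encodes a secreted bone growth factor, stayed at or under 31.3 normalized counts in every library. Clec16a, whose protein works at endosomes, had 511 to 647 over the 6 libraries.

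Siglecs bind sialic acids on neighbouring cells or on the same cell. Of the 6, 2 fell and 0 rose (33.3% called, beside 21.5% of all tested genes). Siglec1 (ENSMUSG00000027322, chromosome 2, 131069220 to 131086765, minus strand), which encodes sialoadhesin (CD169), an adhesion receptor without an ITIM that is known as interferon-inducible, had 2503, 2604 and 2659.6 normalized counts in wild type. The libraries labelled Txn1 KO had 1652, 1539 and 1374, each far below the lowest wild-type library. Its mean was 58.8% of wild type (log2 -0.77 ± 0.057, limma BH-adjusted p = 2.58e-08), the largest fall of the 15 called members. Cd33 (ENSMUSG00000004609, chromosome 7, 43524216 to 43544428, minus strand), a small Siglec of myeloid cells, fell from 1855, 1972 and 1830.4 to 1495, 1487 and 1381 normalized counts, again without overlap (log2 -0.37 ± 0.049, limma BH-adjusted p = 2.39e-05).

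The other 4 Siglecs did not pass. Cd22, the inhibitory receptor best known from B cells, had 291, 347 and 315 in wild type and 386, 379.9 and 336 normalized counts under the Txn1 KO label (log2 0.21, 95% interval 0.02 to 0.40, limma BH-adjusted p = 0.120). Without Txn1 KO library 3 its adjusted p was 0.0497, the lowest over the alternatives, whose highest was 0.347. Exons of Cd22 and of Pilra overlap in part with genes on the opposite strand (Gm29439 and Zcwpw1), whose reads cannot be told apart without the strand. Of 7 B cell markers only Cd79b was listed, at 20.1 to 30.6 normalized counts. Siglec5, as the table names the gene that GENCODE M21 calls Siglecf, had 143 to 189 and 145 to 185 normalized counts. Siglece, an inhibitory Siglec, ranged from 18.2 to 39.0 and Siglech, a DAP12-coupled marker of plasmacytoid dendritic cells, from 7.65 to 25.5 normalized counts over the 6 libraries, with overlap between groups. Of 6 plasmacytoid dendritic cell markers 3 were listed (Runx2 higher, Il3ra lower, Spib not called), with a sum of 4844 to 5028 in wild type and 4113 to 4379 under the Txn1 KO label that was nearly all Il3ra.

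**Figure D4:**
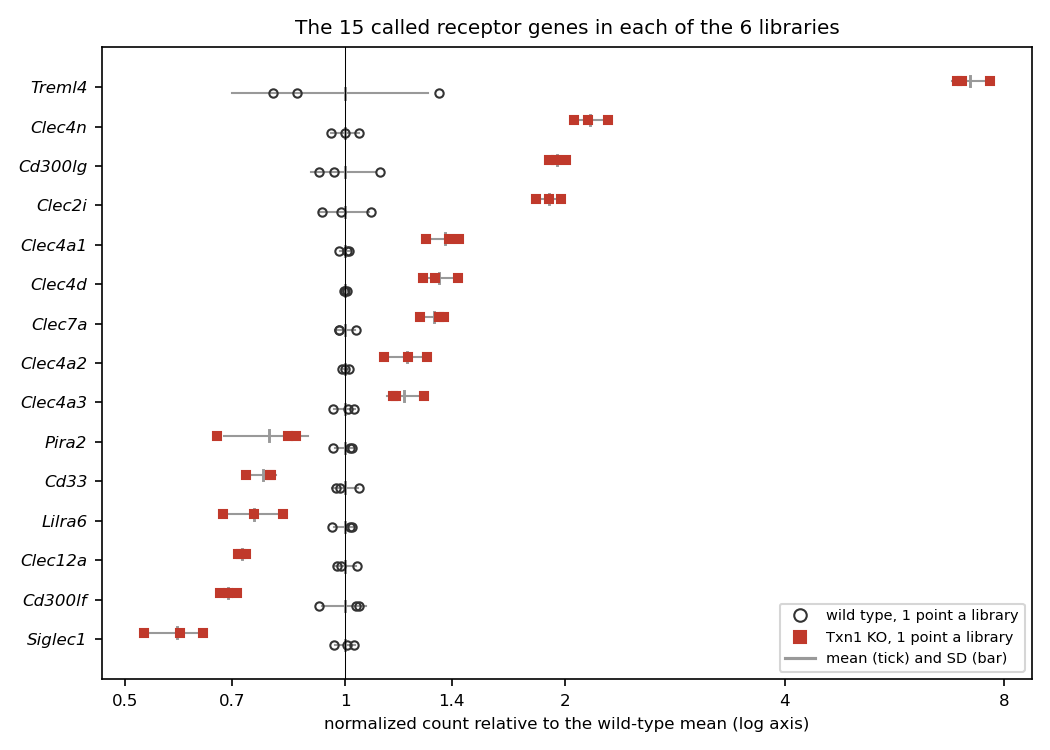
Normalized count of the 15 called receptor genes in each library, divided by the gene's wild-type mean (log axis). Open circles are wild-type and filled squares Txn1 KO libraries, ticks are group means and bars SD; for each gene the groups are apart, from Treml4 with a 7.18-fold higher mean to Siglec1 at 58.8% of wild type.

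In the TREM family 1 of 4 was called, as higher (25%, near the 21.5% of all tested genes). Treml4 (ENSMUSG00000051682, chromosome 17, 48264295 to 48275360, plus strand) encodes a receptor that binds dead cells. It was close to the floor in wild type, with 9.17, 5.44 and 5.87 normalized counts, and at 52.2, 47.8 and 47.1 in Txn1 KO-labelled libraries. The mean was 7.18-fold higher, and the log2 change, which the pseudocount of 1 shrinks at so low a level, was 2.71 ± 0.35 (limma BH-adjusted p = 1.85e-05; 2.20 with a pseudocount of 5 and 2.79 with 0.5). Trem2, the lipid receptor of macrophages and microglia, was among the most abundant members and did not differ: 62564, 54848 and 59118 normalized counts against 59559, 59107 and 60153, with the Txn1 KO libraries inside the wild-type range. The difference on the log2 scale was 0.02 (95% interval -0.07 to 0.11), and -0.03 without wild-type replicate 2. Treml1, known from platelets (178 to 223 and 209 to 239.6), and Treml2 (432 to 479 and 423 to 481 normalized counts) overlapped between groups. The 3 listed markers of megakaryocytes and platelets were higher in sum in Txn1 KO-labelled libraries (635 to 746 against 334 to 377 normalized counts), 2 of them called; their part in the Treml1 and Clec1b values was not tested. Within the 103 kb from Treml4 to Treml1 a further listed gene, B430306N03Rik, rose (log2 0.74 ± 0.054, limma BH-adjusted p = 2.28e-08).

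DAP12 is the signalling partner of TREM2, MDL-1, Siglec-H and others. Its gene Tyrobp (ENSMUSG00000030579, chromosome 7, 30413760 to 30417585, plus strand) had 24643, 22611 and 21830.2 normalized counts in wild type and 22559, 21778 and 21591 in Txn1 KO-labelled libraries. The groups overlapped, and the difference on the log2 scale was -0.07 (95% interval -0.15 to 0.02, limma BH-adjusted p = 0.283).

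The CD300 proteins bind phosphatidylserine and other lipids. Of 10 members 1 rose and 1 fell, which is 20% beside the background of 21.5%. Cd300lf (ENSMUSG00000047798, chromosome 11, 115116214 to 115133992, minus strand), an ITIM receptor that also serves mouse norovirus for entry, had 1304, 1148 and 1289.6 normalized counts in wild type and 886, 862 and 839.8 in Txn1 KO-labelled libraries. All 3 of these were lower than any wild-type library (69.2% of the mean, log2 -0.53 ± 0.058, limma BH-adjusted p = 3.58e-06). Cd300lg (ENSMUSG00000017309, chromosome 11, 102041509 to 102055620, plus strand), which encodes the endothelial protein nepmucin and lies outside the CD300 cluster, was low at 73.4, 76.9 and 88.9 and rose to 152, 155 and 160.2 normalized counts (log2 0.96 ± 0.14, limma BH-adjusted p = 8.05e-05). Among the endothelial and Kupffer cell markers, 3 of the 6 listed were called higher (Fcgr2b, Lyve1 and Oit3; sums of 3118 to 3269 and 3846 to 4231 normalized counts), and Cdh5 was uneven in Txn1 KO-labelled libraries (239.96, 119.6 and 33.6 normalized counts against 41.8 to 52.1 in wild type). The log2 changes of the 6 listed markers ran from 0.17 to 3.11, and 1 was called at least 2-fold higher. The part of such cells in the Cd300lg values was not tested.

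The abundant CD300 genes differed little. Cd300a, an ITIM receptor, had 10038, 10115 and 10457 normalized counts in wild type and 10648, 10614 and 10080.1 under the Txn1 KO label. The DAP12-coupled Cd300lb had 7354, 7099 and 7485 against 7900.2, 7758 and 7450.4. Neither set of 3 was clear of the other. For Cd300c2 the values were 9748, 8739 and 9421 against 9042, 8813 and 8389.7, and for Cd300ld 2841, 2585 and 2668 against 2541, 2602 and 2517, again with overlap. The log2 differences of these 4 genes lay between -0.09 and 0.07. Cd300c2 passed without wild-type replicate 2 (log2 -0.13, limma BH-adjusted p = 0.0339, the lowest over the alternatives, whose highest was 0.748). Cd300e was at 14.3, 12.4 and 20.96 in wild type and 33.6, 32.5 and 20.2 under the Txn1 KO label (log2 0.82 ± 0.35, limma BH-adjusted p = 0.110). It passed without Txn1 KO library 3 (limma BH-adjusted p = 0.0482, the lowest of the alternatives, whose highest was 0.28). Cd300c, Cd300ld3 and Cd300ld5 were at or under 79.5 normalized counts and not called. Cd300ld3 and Cd300ld5 share 82.1% and 100% of their 50-base stretches with other genes, so their values are uncertain. In the 244 kb cluster on chromosome 11, Cd300lf was the 1 of 9 members called, beside 21.5% of all tested genes.

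In the LILR and PIR family 2 of 4 fell (50% called, beside 21.5% of all tested genes). PIR-A proteins are activating and PIR-B is inhibitory, and both kinds bind MHC class I. Pira2 (ENSMUSG00000089942, chromosome 7, 3836812 to 3845051, minus strand) had 1974, 2080.3 and 2090.3 normalized counts in wild type and 1709.9, 1757 and 1366 in Txn1 KO-labelled libraries. Its groups did not overlap, and Txn1 KO library 3 was the lowest (log2 -0.35 ± 0.071, limma BH-adjusted p = 0.00150). Lilra6 (ENSMUSG00000030427, chromosome 7, 3908280 to 3915503, minus strand) went from 572, 537 and 568 to 419.6, 379.9 and 460.3 (log2 -0.42 ± 0.079, limma BH-adjusted p = 0.000910). Pirb (chromosome 7, 3711409 to 3720391, minus strand) was far more abundant and nearly level, with 18594, 19226 and 18957 against 18593, 18247 and 18490.0 normalized counts (log2 -0.04, 95% interval -0.10 to 0.03, limma BH-adjusted p = 0.446). These genes are near-copies: 93.0% of the 50-base stretches of Pira2, 31.3% of Lilra6 and 34.0% of Pirb occur in other genes. The authors' counting may have split or dropped such reads, so the values of Pira2, Lilra6 and Pirb, and the comparison between them, are uncertain. The predicted gene Gm15922 holds 82.6% of the stretches of Pira2, and Gm14548 holds 17.7% of those of Pirb, so their values are uncertain too. Of 4 predicted genes listed between Pirb and Lilra6, Gm14548 and Gm10693 fell (log2 -0.73 and -0.79), though the call of Gm10693 was lost without Txn1 KO library 1 or any 1 wild-type library (limma BH-adjusted p 0.0632 to 0.101), under the replicate block (0.0514), without both libraries with liver transcripts (0.0987), with DESeq2 (0.0619) and in the authors' deposited table (0.0632), and Gm15922 and Gm15448 did not pass (log2 -0.10 and -0.19).

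The bases upstream of Pirb, Pira2 and Lilra6 are printed because genes with unequal change have nearly the same sequence there. Shown are 250 bases before each RefSeq start, 5′ to 3′ on the minus strand of chromosome 7 (GRCm38.p6; chr7:3720383-3720632, chr7:3845052-3845301 and chr7:3915502-3915751). Capitals mark GAGGAAGT, the letters of a binding site of the myeloid factor PU.1.
Pirb: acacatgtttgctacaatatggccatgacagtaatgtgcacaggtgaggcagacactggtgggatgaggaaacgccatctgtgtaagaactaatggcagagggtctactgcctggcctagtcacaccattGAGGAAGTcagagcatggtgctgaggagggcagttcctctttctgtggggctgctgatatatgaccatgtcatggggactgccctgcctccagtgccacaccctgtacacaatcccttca
Pira2: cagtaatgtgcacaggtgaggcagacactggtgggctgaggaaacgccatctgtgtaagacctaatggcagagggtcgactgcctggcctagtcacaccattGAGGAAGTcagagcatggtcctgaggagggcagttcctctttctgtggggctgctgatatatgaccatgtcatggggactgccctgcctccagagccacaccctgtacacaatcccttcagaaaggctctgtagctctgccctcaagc
Lilra6: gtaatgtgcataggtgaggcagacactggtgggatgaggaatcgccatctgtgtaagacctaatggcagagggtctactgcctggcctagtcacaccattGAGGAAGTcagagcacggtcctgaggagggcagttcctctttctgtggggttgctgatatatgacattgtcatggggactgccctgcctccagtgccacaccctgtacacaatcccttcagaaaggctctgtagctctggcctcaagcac
Aligned end to end, the window of Pira2 matched that of Pirb in 217 of 222 aligned bases (97.7%), that of Lilra6 matched Pirb in 212 of 220 (96.4%), and those of Pira2 and Lilra6 matched each other in 238 of 248 (95.97%). GAGGAAGT starts 120 bases before the start of Pirb, 148 before Pira2 and 150 before Lilra6. Among the 37 receptor genes with a window 6 hold it on either strand (these 3, Cd300ld, Cd300ld3 and Cd300ld5), and 2.44% of all RefSeq windows do. The Cd300ld, Cd300ld3 and Cd300ld5 windows are also near-copies of each other (87.4% to 94.8% of aligned bases identical), so the 6 are not independent. The same 3 PIR windows also hold TGACNNNGC. Of the other letters searched, TGANTCA (AP-1) was in 2 of the 37 (6.87% of all windows) and TTCNNNGAA (STAT) in 3 (7.18%). A match of letters is a description and shows no binding.

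Lilrb4a, whose product gp49B is an ITIM receptor, was the most abundant member by normalized count, at 67387, 71533 and 67144 in wild type and 68723, 67599 and 70263 in Txn1 KO-labelled libraries. The groups overlapped (log2 0.00, 95% interval -0.07 to 0.08). The identifier in the table, ENSMUSG00000062593, is Gm49339 in GENCODE M21 and spans both Lilr4b and Lilrb4a on chromosome 10 (51480612 to 51496613), and 96.6% of its 50-base stretches occur in other genes. How reads of these near-identical copies were assigned is not known here, so the value is uncertain.

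Sirpa, the receptor for the "do not eat me" protein CD47, had 66230.1, 68686 and 68575 normalized counts in wild type and 63771, 64632 and 65566 in Txn1 KO-labelled libraries. Every Txn1 KO library was below every wild-type one, by a small amount that did not pass (log2 -0.07 ± 0.032, 95% interval -0.14 to -0.00, limma BH-adjusted p = 0.144). Lair1, the collagen receptor with ITIMs, had 4934, 4806 and 4910.0 normalized counts in wild type and 4814, 4656 and 4923 under the Txn1 KO label, with overlap (log2 -0.03). The PILR genes, a paired set with the inhibitory Pilra and the activating Pilrb1 and Pilrb2, were at 15.1 to 98.2 normalized counts over the 6 libraries, and 0 of 3 were called.

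Downstream and around the receptors, 95 further listed genes were counted in 7 lists chosen by role, and 18 of these rose and 15 fell (34.7%, beside 21.5% of all tested genes). The share called was 33.6% for all genes with a mean of at least 1000 normalized counts, and these lists were not split by level. Among ITAM adaptors, SRC-family kinases, SYK and the CARD9 branch 3 of 21 rose and 3 fell, with a median log2 change of 0.00. The kinases Fgr (892 ± 29.0 to 1271 ± 53.2 normalized counts, SD, n = 3 each; log2 0.51, limma BH-adjusted p = 2.10e-06) and Src (log2 0.58) and the protein kinase C gene Prkcd (log2 0.18) rose. The adaptor gene Blnk (log2 -0.17), the Fc receptor γ chain gene Fcer1g (log2 -0.15, limma BH-adjusted p = 0.0110) and Vav1 (log2 -0.10, limma BH-adjusted p = 0.0333) fell. With Txn1 KO library 2 or wild-type replicate 1 left out, the limma BH-adjusted p of Fcer1g was 0.0801 or 0.0521, the highest over the alternatives, and the call of Vav1 was lost without any 1 library (0.053 to 0.0926). Fcer1g, the partner of dectin-2 and MCL, thus had a lower level (21582 ± 884 to 19399 ± 1057 normalized counts) in the libraries in which Clec4n and Clec4d were higher. Syk itself (log2 0.08, limma BH-adjusted p = 0.0917) and Card9 (log2 0.00) did not pass. Of 7 phosphatase and Csk genes, 1 fell: Ptpn11, which encodes SHP-2 (log2 -0.12, limma BH-adjusted p = 0.0474), a call lost without any 1 of the 6 libraries (adjusted p 0.0572 to 0.204). Ptpn6, which encodes SHP-1, differed by -0.03.

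Other ITIM or paired receptors gave 3 higher and 2 lower of 12 (41.7% called, beside 21.5% of all tested genes). One of the 3 was Pecam1 (log2 0.96, limma BH-adjusted p = 0.0108), whose call was lost without Txn1 KO library 1 or 2 or wild-type replicate 3 (limma BH-adjusted p 0.0613 to 0.0796), with DESeq2 (0.0551) and in the authors' deposited table (0.0560), while its log2 change ranged from 0.71 to 1.52 over the alternatives. Cd72, an ITIM lectin, fell from 13084 ± 423 to 9687 ± 329.6 normalized counts (log2 -0.43, limma BH-adjusted p = 1.15e-07) and the activating Cd200r4 by 0.23 (log2), while Cd200r1, an inhibitory receptor for CD200, and the inhibitory Fc receptor gene Fcgr2b rose (log2 0.40 and 0.32). C-type lectins outside the Clec names had 6 of 16 higher and 4 lower. Layn, which encodes the hyaluronan receptor layilin, rose from 458 ± 17.1 to 1225 ± 3.89 normalized counts (log2 1.42 ± 0.058, limma BH-adjusted p = 1.45e-11). Colec12 (log2 0.41) and Ly75 (log2 0.59), both endocytic receptors, rose, and the mannose receptor gene Mrc1 fell (log2 -0.43). Of 6 galectin genes 3 fell: Lgals9 (log2 -0.34), Lgals3bp, a galectin-binding protein (log2 -0.19), and Lgals1 (log2 -0.22). The call of Lgals1 was lost without the 2 libraries with liver transcripts (log2 -0.10, limma BH-adjusted p = 0.127; over the alternatives 0.00429 to 0.127). The median of that list was -0.21.

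The genes that make, transfer and remove sialic acid, the ligand of Siglecs, had 3 of 21 higher and 1 lower (19.0%, near the 21.5% of all tested genes; median log2 0.02). St3gal5, Cmas and St3gal1 rose by 0.28, 0.22 and 0.18 (log2). The call of St3gal1 was lost without Txn1 KO library 2 or wild-type replicate 2 or 3 (limma BH-adjusted p 0.105 to 0.15). Cmah, which makes the N-glycolyl form of sialic acid, was low and fell from 65.2 ± 3.33 to 30.6 ± 9.36 normalized counts (log2 -1.11 ± 0.25, limma BH-adjusted p = 0.00404), and its call was lost without the 2 libraries with liver transcripts (limma BH-adjusted p = 0.0524). Among named ligands and shedding proteases 3 of 12 rose and 1 fell. Angptl2, which encodes a ligand of PIR-B, rose from 3906 ± 175 to 5393 ± 81.1 normalized counts (log2 0.47, limma BH-adjusted p = 1.23e-07), and Ms4a4a and the sheddase gene Adam17 rose by 0.57 and 0.14 (log2); Adam17 lost its call without wild-type replicate 1 (limma BH-adjusted p = 0.0521) and without both libraries with liver transcripts (0.0871). Apoe, a ligand of TREM2, fell by 0.13 on the log2 scale, a call lost without wild-type replicate 3 (limma BH-adjusted p = 0.112) or Txn1 KO library 1 (0.0869) or 2 (0.166). Cd47, the ligand of SIRPα, had 8151 ± 124 and 7662 ± 157 normalized counts (limma BH-adjusted p = 0.0652).

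Markers of other cells are given by how many were called, beside 21.5% of all tested genes, and by the range of their sum in each group. Dendritic cell markers had 1 of 7 called higher (Ccr7) and summed to 303 to 364 normalized counts in wild type and 412 to 442 in Txn1 KO-labelled libraries, of which Ccr7 gave most; Xcr1, Flt3, Itgae and Zbtb46 were at or under 25.6 in every library. Neutrophil and precursor markers had 3 of 8 higher and 2 lower (3266 to 3418 and 3937 to 4138). Csf3r gave most of these sums, with means of 2636 in wild type and 2871 under the Txn1 KO label. Monocyte markers had 1 of 5 higher and 1 lower (1514 to 1738 and 1556 to 1632). Eosinophil, basophil and mast cell markers had 0 of 3 called (28.5 to 52.0 and 48.7 to 52.6). Osteoclast markers had 5 of 6 higher and 1 lower (Mmp9), and summed to 18323 to 18441 and 20579 to 22778 normalized counts. Most of that was Atp6v0d2, with means of 15239 in wild type and 17325 under the Txn1 KO label (log2 0.18). Stromal markers had 6 of 10 lower and 0 higher, summing to 2446 to 2776 and 1192 to 2062. Of 8 T and NK cell markers 0 were listed. The part of these cells in the receptor values was not tested.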

How the data were processed

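PolyA-selected RNA of 6 BMDM libraries, 3 for each of the 2 groups, was sequenced, per the labels' protocols. The submitters' processing notes name bcl2fastq 2.20, Trimmomatic 0.36, STAR 2.5.2b, DESeq2 and the build GRCm38 (mm10); counting tool, strand setting and annotation stay not given in the sources used here. Per library, the signal the authors deposited for each gene is a normalized count: 100% of the values came out as whole reads (tolerance 0.01) times 1 factor per library, and 1 read was worth 0.777 to 1.35. The authors also deposited for each gene their own log2 fold change with its raw and adjusted p-value, used only as an alternative. No per-sample column was left unused.

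Genes with a mean of at least 10 normalized counts (13977 of 14005) were tested with limma 3.58.1 (trend) on log2(normalized count + 1), two-sided, with Benjamini-Hochberg adjustment over all of them and a call at adjusted p under 0.05. The pseudocount shrinks fold changes of low genes, yet values on this scale can also be larger in size than those of edgeR. For Treml4 the log2 change was 2.71 in limma and 2.85 in edgeR, and for Clec4a4 -0.45 and -0.22. On simulated data for this comparison (13845 genes), limma recovered 78.4% of changes of log2 1 and 68.4% of log2 0.5, with 14 false of 157 calls. Alternatives were pseudocounts of 0.5 and 5, other filters, a threshold of 0.01, leaving out libraries, a replicate block, TMM rescaling, the authors' statistics, and edgeR 4.0.16 and DESeq2 1.42.0 on the recovered reads. Called members, those with a mean of at least 1000 and a few fixed by name are given per library, and from each pathway list up to 4 called genes of smallest p. Fcer1g, Vav1, Syk, Card9, Ptpn6, Cd47 and Pecam1, the pairs of members set in ratio, the other listed genes of clusters and the marker genes named were chosen after their values were seen. The members and all lists were chosen with earlier results of these data known. Positions and shared 50-base stretches came from GENCODE M21 (GRCm38), promoter windows from RefSeq (GRCm38.p6).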

Additional observations from a re-analysis of the deposited data

How the results depend on the processing

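All 15 calls among the receptors kept their direction and their side of the threshold in every alternative that gave a value; Treml4 had none with the filter at a mean of 50. The receptors called numbered 15 to 18 when each library was left out in turn (9 to 12 higher, 6 to 7 lower), 16 without the 2 libraries with liver transcripts, 16 with edgeR, and 15 with DESeq2 and with the authors' deposited statistics. At adjusted p under 0.01 the calls over all tested genes were 1833 (1024 higher and 809 lower), and 9 genes of the pathway lists were lower against 15. With 1 library left out, the genes lower among all tested numbered from 891 (without wild-type replicate 3) to 1304. Several values near 0 changed sign with 1 library left out, and the cause was not tested: the log2 difference of Clec4e ran from -0.1420 to 0.0176 (without wild-type replicate 2), that of Lilrb4a from -0.0120 to 0.0337, that of Trem2 from -0.0290 to 0.0659, and that of Txn1 from -0.0507 to 0.0075. Without the 2 libraries with liver transcripts Lilrb4a was at -0.0240 and Txn1 at 0.0050. Of 916 values under alternatives, for the called and the abundant receptors, the called genes of smallest p in each pathway list, Txn1 and Lyz2, 872 kept direction and side, 30 lost the call, 6 gained it and 8 changed sign; the low receptors outside this tally also changed sign in some alternatives. Deviations of same-numbered libraries correlated at -0.27, 0.14 and -0.33, and wild-type replicate 1 deviated most like Txn1 KO library 3 (0.43). Correlations among so few libraries cannot decide whether the replicate numbers pair them. With the replicate number as a block, 15 receptors, 28 genes of the pathway lists and 2675 of all tested genes were called. Depth limits the 15 receptors with a mean under 100 normalized counts most.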
